A study of Mus musculus with 2 samples.

Results

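The cells described here are 1625 hormone-sensing luminal cells of the wild-type mouse mammary gland, a group proposed under the names of the genes Fgb and Calca. They make up 21.9% (95% interval 21.0 to 22.9) of the 7406 WT barcodes kept, out of 15864 kept and 18568 deposited barcodes in the series. A barcode was kept with at least 500 genes, at least 1000 UMIs (unique molecular identifiers, each standing for 1 captured RNA molecule) and at most 10% of UMIs from mitochondrially encoded genes. It counted as hormone-sensing with at least 5 UMIs per 10000 from Areg, Pgr, Esr1 and Cited1 together. A member then had at least 2 detected genes of Fgb, Fgg, Upk3a, Pir and Calca (the marker set), and more of them than of Fxyd2, Bmp3, Cdh13, Pcp4 and Ido1 (the contrasting set). Members are 53.9% of the 3016 WT hormone-sensing cells. The other WT cells fall into 791 cells chosen the opposite way, called Fxyd2-Cdh13 cells here, 600 other hormone-sensing cells and 4390 receptor-negative cells, which stay below the hormone gene minimum. Because the data did not bear out Calca as a mark that goes with the rest of its set, the members are called Fgb-Upk3a cells. The name is a label only: at full depth 39.1% of members had a Upk3a UMI.

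Hormone-sensing cells are the luminal cells of the mammary gland that carry the receptors for oestrogen, progesterone and prolactin. They divide little in response to the hormones themselves and pass the signal on through secreted factors, among them the EGF receptor ligand amphiregulin (Areg), the Wnt ligand Wnt4 and the cytokine RANKL (Tnfsf11). Fibrinogen, the clotting protein, is built from paired alpha, beta and gamma chains encoded by Fga, Fgb and Fgg, and the liver is its classical source.

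The study profiled sorted mammary luminal cells with a droplet-based Chromium 3′ single-cell kit, with 10000 cells submitted per sample and 1 library per genotype. WT stands for FVB/NJ mice of 3.5 months with a Sox9-GFP reporter. C3-TAg stands for FVB/NJ mice of the same age with the same reporter and the C3-TAg transgene, which places a viral large T antigen under the promoter of a rat prostatic steroid-binding protein gene and gives mammary tumours. The reporter is thus shared by both groups, the transcripts of the reporter and the T antigen were not measured, and neither the sort gate nor the number of animals pooled is stated in the sources. With 1 library per genotype no difference has a replicate check, so no test was run and no p-value is given. All intervals are 95% intervals that cover counting error only. Levels are given in CPM: the UMIs of a gene as a share of all UMIs of the group of cells, scaled to 1000000. A gene was called higher or lower past a 1.5-fold ratio, and was measured where both groups together had at least 20 of its UMIs.

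The libraries held 91133082 UMIs (WT) and 91932121 UMIs (C3-TAg), and kept cells had medians of 10487 and 8961 UMIs. Members had a median of 10208 UMIs and 2877 genes, Fxyd2-Cdh13 cells 9245 UMIs and receptor-negative cells 11381 UMIs. The median mitochondrial share was 5.35% in members and 4.50% in receptor-negative cells. The members' share of WT cells was 14.2% where the mitochondrial maximum was 5%. The libraries shared 20 barcode sequences, of which 5 belonged to members. Scrublet called 182 members (11.2%) as doublets, against 63 Fxyd2-Cdh13 cells (7.96%) and 64 receptor-negative cells (1.46%). The called members had a median of 21288 UMIs, against 9868 in the others, and a median of 481 UMIs per 10000 from 21 genes of receptor-negative luminal cells such as the caseins, against 11.9. The rule does not remove them, so they are included below, and values without them are given beside the main counts and for genes where they differ most.

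The fibrinogen genes lie side by side on chromosome 3 (GRCm38) within 42.1 kb. Fgg is at chr3:83007724-83015049 on the plus strand, Fga at chr3:83026076-83033627 on the plus strand and Fgb at chr3:83040141-83049863 on the minus strand. Their promoters are shown because 2 of the 3 neighbours mark the members and the other was all but absent from them. The sequences are RefSeq's (GRCm38.p6) for the bases before the start, 5′ to 3′ on the strand of the gene. They cover chr3:83025903-83026075 for Fga, chr3:83049864-83050113 for Fgb and chr3:83007474-83007723 for Fgg. The Fga stretch stops where the gene begins in the GENCODE annotation, 77 bases before the RefSeq start, so the last 77 bases of its RefSeq window are not shown. Capitals mark CTGGGA, known as the core of the interleukin-6 response elements of fibrinogen promoters.
Fga: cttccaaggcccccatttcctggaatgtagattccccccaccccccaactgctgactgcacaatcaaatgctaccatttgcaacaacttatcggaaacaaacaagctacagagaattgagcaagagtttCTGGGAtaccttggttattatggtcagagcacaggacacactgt
Fgb: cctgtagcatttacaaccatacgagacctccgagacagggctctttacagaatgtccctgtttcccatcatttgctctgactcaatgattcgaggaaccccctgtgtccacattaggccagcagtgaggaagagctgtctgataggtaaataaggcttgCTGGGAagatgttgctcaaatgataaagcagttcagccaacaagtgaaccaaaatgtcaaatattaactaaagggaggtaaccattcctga
Fgg: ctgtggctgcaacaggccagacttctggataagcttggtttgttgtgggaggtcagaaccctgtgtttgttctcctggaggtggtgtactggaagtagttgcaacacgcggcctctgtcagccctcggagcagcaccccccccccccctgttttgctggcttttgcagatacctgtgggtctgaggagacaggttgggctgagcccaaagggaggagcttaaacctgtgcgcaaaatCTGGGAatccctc

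The hexamer begins 121 bases before the RefSeq start of Fga, 91 before that of Fgb and 13 before that of Fgg. Motifs were searched in the whole windows of 250 bases, on both strands. CTGGGA (or TCCCAG) occurred in 27.0% of 32851 RefSeq promoters of 250 bases. Among the marker set Fgb, Fgg and Pir held it and Upk3a and Calca did not. The longer CTGGGAA was in the Fgb and Fgg promoters and in 9.10% of all promoters. TTCNNNGAA, the pattern that STAT proteins bind, was in the Fga and Fgb promoters and in 7.02% of all. GTTAAT (or ATTAAC), part of the site of the liver factor HNF1, was in the Fga and Fgb windows and in 6.43% of all. For Fga this match lies in the bases not shown. Such matches describe the letters only.

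The transcripts of the chains were present very unequally. Fgb reached 2328 CPM (2306 to 2350) in members and Fgg 1959 CPM (1939 to 1979). Fga, the alpha chain, gave 1 UMI among the 19061433 UMIs of the members, or 0.0525 CPM. It gave 0 UMIs in Fxyd2-Cdh13 cells, where a count of 0 allows up to 0.370 CPM, and 0 in receptor-negative cells, which allows up to 0.0565 CPM. The C3-TAg cells that met the rule had 5 Fga UMIs, and 0 without called doublets. Markers of hepatocytes were as scarce in members, with 0 UMIs of albumin (Alb) and of Serpina1a and 1 UMI each of Apoa1 and Ttr. The beta and gamma chain messages, with 44375 and 37333 UMIs in members, were thus counted almost without their alpha partner.

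The marker set chose the members, so its levels are a description. Fgb, the beta chain, stood at 2328 CPM in members, 222 in Fxyd2-Cdh13 cells, 459 in the other hormone-sensing cells and 16.7 in receptor-negative cells. Fgg, the gamma chain, stood at 1959, 689, 996 and 22.4 CPM in the same order. Fgg was therefore shared more widely among hormone-sensing cells than Fgb, with ratios of members to Fxyd2-Cdh13 cells of 2.84 for Fgg and 10.5 for Fgb. Upk3a, a uroplakin of the bladder surface at chr15:85017141-85022547, stood at 217 CPM in members, 2.71 in Fxyd2-Cdh13 cells, 9.65 in the other hormone-sensing cells and 0.773 in receptor-negative cells. Pir, which encodes the nuclear protein pirin and lies at chrX:164269371-164373011, stood at 170, 4.19, 22.4 and 1.11 CPM. Upk3a and Pir thus had the widest gaps, 80.1-fold and 40.6-fold over Fxyd2-Cdh13 cells. Calca, the gene of calcitonin and of the neuropeptide CGRP at chr7:114631478-114636357, stood at 252, 173, 199 and 2.79 CPM, a ratio of only 1.45 to Fxyd2-Cdh13 cells. Without called doublets the Calca ratio was 1.55.

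After thinning every cell to 2000 UMIs, 69.0% of the 1621 members deep enough had an Fgb UMI, against 12.6% of Fxyd2-Cdh13 cells and 2.33% of receptor-negative cells. Fgg was seen in 73.7%, 38.7% and 2.74%, and Upk3a in 19.4%, 0.126% and 0.137%. Pir was seen in 23.5%, 0.506% and 0.251%, and Calca in 15.5%, 10.2% and 0.137%. At full depth the members' shares were 87.3% for Fgb, 92.2% for Fgg, 39.1% for Upk3a, 59.0% for Pir and 36.8% for Calca. The receptor-negative cells give the level that free RNA or stray cells can leave. Without called doublets they held 0.796% of the hormone-sensing cells' level of Fgb, 0.513% of that of Upk3a and 0.355% of that of Calca. These percentages compare levels, not shares of cells with a UMI. Members were chosen by detection of at least 2 of these 5 genes, so their high shares are a description.

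**Figure D1:**
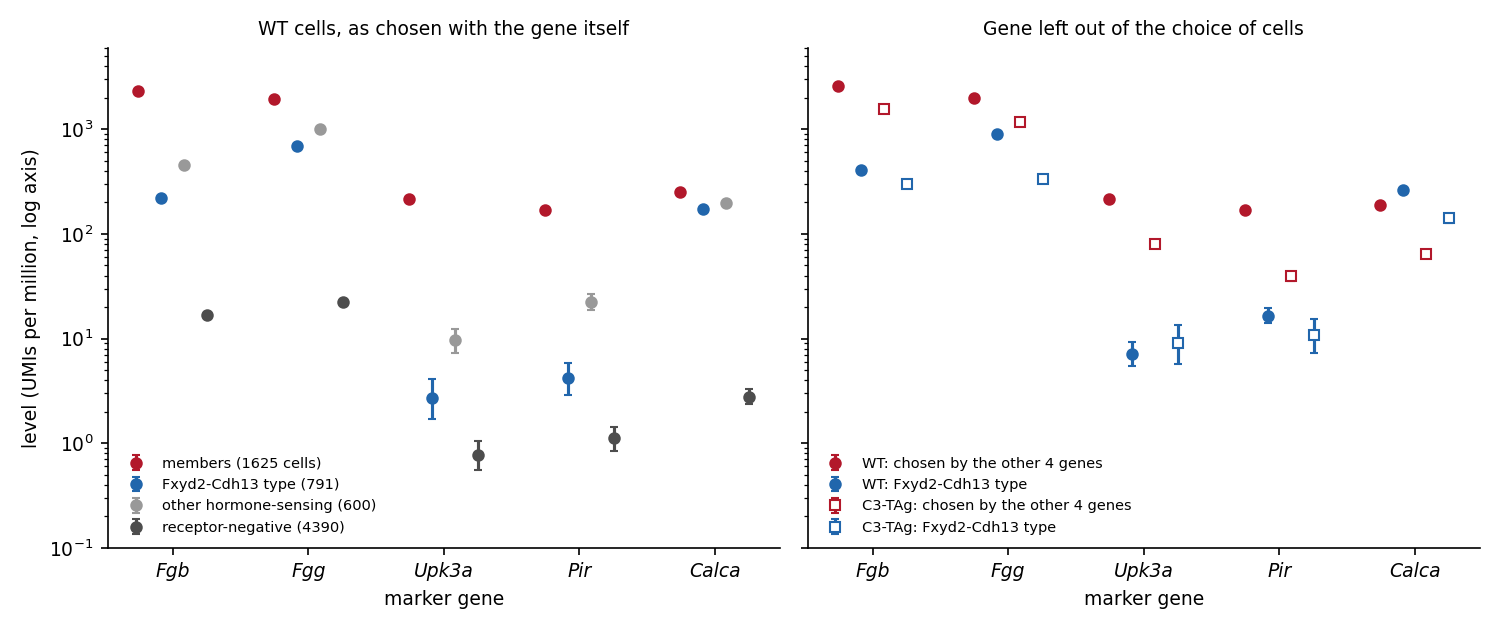
Left, levels of the 5 marker genes (CPM, log axis) in the 1625 members, the Fxyd2-Cdh13 cells, the other hormone-sensing cells and the receptor-negative cells of WT. Right, the level of each gene in cells chosen by the other 4 (red) and in cells of the opposite choice (blue), in WT (filled) and C3-TAg (open). Bars are 95% Poisson intervals, mostly smaller than the points. Calca alone lies higher in the blue points, at 265 against 188 CPM in WT.

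To see each gene in cells that it had not chosen, the choice was repeated with each marker gene left out in turn. Cells chosen by the other 4 genes had 2611 CPM of Fgb, against 409 CPM in cells of the opposite choice, a ratio of 6.38. For Fgg the levels were 1995 and 904 CPM, a ratio of 2.21. Upk3a had 217 against 7.16 CPM (30.3-fold) and Pir 171 against 16.5 CPM (10.3-fold). So 4 of the 5 genes remained higher in cells they did not choose. Calca did not: it had 188 CPM (182 to 195) in the 1458 cells chosen by the other genes and 265 CPM (255 to 276) in those of the opposite choice, a log2 ratio of -0.49 (-0.57 to -0.42). In the C3-TAg library, which the rule did not use, the ratios were 5.27 for Fgb, 3.57 for Fgg, 8.80 for Upk3a and 3.64 for Pir. For Calca it was 0.450. Without called doublets the Calca ratios were 0.748 in WT and 0.446 in C3-TAg. That is why Calca was left out of the name.

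Single members varied widely in these genes. Over the 1443 members not called doublets, Fgb had a median of 14.8 UMIs per 10000 and ranged from 0 to 233. Fgg had a median of 14.9 and a highest value of 196. Upk3a had a median of 0, a 90th percentile of 7.10 and a highest value of 57.3, and Pir a median of 0.965 and a highest value of 24.0. Calca was the most uneven: its median was 0 and its 90th percentile 4.56, yet the highest cell reached 243, and 10 cells held 33.3% of the Calca UMIs of all members. With members thinned to 2000 UMIs, the variance divided by the mean (the Fano factor, which is near 1 for pure counting noise) was 13.5 for Calca, 9.49 for Fgb and 6.60 for Fgg. The median over 2531 genes was 1.03. The highest value, 238.9, belonged to Glycam1, which encodes a mucin-like protein secreted into milk, and 10 cells held 92.8% of its UMIs.

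Detection of one marker gene went with that of another in some pairs and not in others. Among 1439 thinned members, those with a Upk3a UMI had a Pir UMI in 43.3% of cases, and those without Upk3a in 20.03%. Members with Upk3a had Fgb in 82.1%, and those without it in 67.6%. Members with a Calca UMI had Fgb in 63.0%, against 72.0% of those without Calca, and Upk3a in 14.5% against 21.3%. Since the rule asks for at least 2 genes of the set, these shares are tied to each other and are a description.

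Members with more marker genes also had higher levels of the hormone-sensing ligand gene Areg, which belongs to the hormone genes of the rule. The 480 members with 2 marker genes had 1234 CPM of Fgb, 15.2 of Upk3a and 3174 of Areg. The 134 members with all 5 had 3926, 463 and 4717 CPM. Fgb and Upk3a are among the genes counted, so their rise is built in. The other hormone genes of the rule were lower in members with all 5: Pgr (93.1 and 81.3 CPM), Esr1 (81.5 and 63.1) and Cited1 (1377 and 1193). Prlr was lower too (2340 and 1672 CPM). Median depth was 9178 UMIs with 2 marker genes and 11985 with 5, and its part was not tested. Just inside the limit, the 247 members with 2 marker genes and 1 contrasting gene had 1035 CPM of Fgb and 9.82 of Upk3a. Just outside it, the 226 hormone-sensing cells with 2 of each had 693 and 2.95 CPM, and the 88 cells with 1 marker gene and no contrasting gene had 141 CPM of Fgb. At the edge of the hormone gene minimum, 43 members had 5 to 10 hormone gene UMIs per 10000, and 41.9% of them were called doublets. Of the 22 cells with 2.5 to 5 such UMIs that met the other conditions, 45.5% were called doublets.

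When the 3016 WT hormone-sensing cells were clustered without the 14 genes of the rule, members were spread over all 7 clusters. Cluster 3, of 587 cells, held 561 members (95.6%), 3 Fxyd2-Cdh13 cells and 23 others, and it contained 34.5% of all members. The genes that led it over the other hormone-sensing cells included Dscam, a neuronal adhesion molecule, and Itih2, a hyaluronan-binding plasma protein. R3hdml, Fam84a, Trbc2 and Reg3g were others. The share of members in the richest cluster depended on how finely the cells were divided: it was 64.9% at resolution 0.3, where that cluster had 1703 cells, 30.3% at resolution 1.0 and 39.4% without called doublets.

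Among the 1421 members that were not called doublets and lay outside cluster 5, the clusters differed in their marker genes. Members in cluster 3 had 415 CPM of Upk3a and the other members 153 CPM. They had 313 against 124 CPM of Pir and 3863 against 1974 CPM of Fgb, whereas Fgg differed less, at 2563 against 2111 CPM. Calca went the other way, with 169 against 396 CPM. Cluster 1, with 363 members among 604 cells, differed the other way in most of these genes, beside other members that include those of cluster 3. Its members had 681 CPM of Calca against 192 in the other members, and 49.2 CPM of Upk3a against 321. They had 1977 against 2956 CPM of Fgb and 114 against 225 CPM of Pir, but Fgg was close, at 2330 and 2280 CPM. They were also higher in the antimicrobial peptide gene Defb1 (143 against 45.0 CPM), in Txnip, a thioredoxin-binding protein (1136 against 503), and in the Notch target Hes1 (243 against 126). So Upk3a and Calca were highest in the members of different clusters.

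The remaining clusters were set apart by genes of other kinds. Cluster 6, with 212 members among 344 cells, had 1281 CPM of Cyr61, a matricellular target of YAP signalling, in its members against 161 in the others. It had 510 against 88.0 CPM of Plaur, the urokinase receptor, together with 391 CPM of Upk3a and 102 CPM of Calca. Cluster 4, with 135 members among 516 cells, was led by Glycam1 and by immediate early genes, transcription factors induced within minutes of stimulation or cell dissociation. Its members had 1424 CPM of Atf3 against 211 and 1342 CPM of Fosb against 204. Cluster 2 was mostly Fxyd2-Cdh13 cells, and its 147 members had 29.5 CPM of Upk3a. Cluster 5 held 203 members, 82.3% of its 356 cells were called doublets, and the genes leading it were those of milk-producing cells. Cluster 7 had 15 cells and 4 members.

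**Figure D2:**
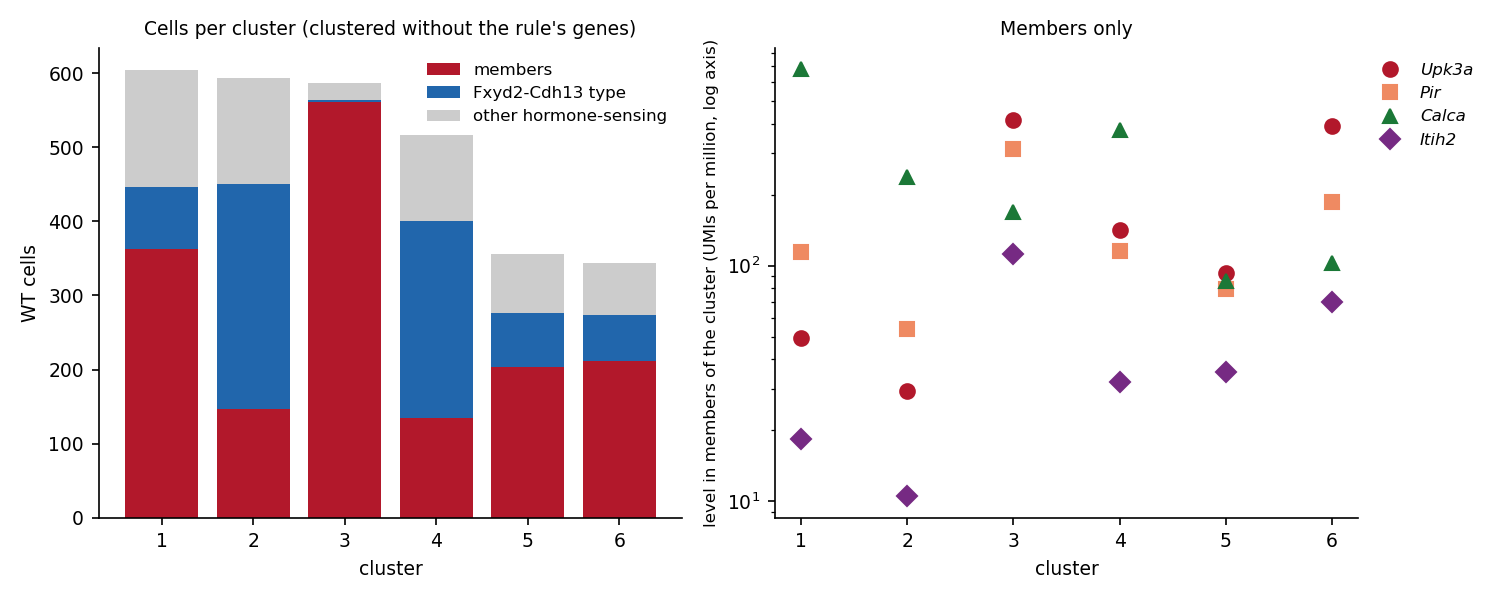
Left, the number of WT hormone-sensing cells in each of clusters 1 to 6, divided into members, Fxyd2-Cdh13 cells and others. Right, levels (CPM, log axis) of Upk3a, Pir, Calca and Itih2 in the members of each cluster. In cluster 3, 561 of 587 cells are members. Upk3a is lowest in clusters 1 and 2, and Calca is highest in cluster 1 at 681 CPM.

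Beside the Fxyd2-Cdh13 cells, the other hormone-sensing type, members differed past 1.5-fold in a minority of genes. The rule used this contrast through its 10 marker and contrasting genes, so the ratios describe how the chosen cells differ. At least 1.5-fold higher were 779 of 11835 genes (6.58%) and lower were 1043 (8.81%), or 6.73% and 10.6% without called doublets. TMM scaling, which centres the bulk of genes, moved all ratios by 0.11 on the log2 scale and gave 1036 higher and 718 lower. Itih2 stood at 57.6 CPM in members and 7.03 in Fxyd2-Cdh13 cells (8.19-fold, log2 3.03, 2.65 to 3.44). R3hdml, a secreted protease-inhibitor-like protein, stood at 277 and 43.0 CPM (6.43-fold). Both were among the highest ratios of genes with at least 50 CPM in a group.

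An antimicrobial gene was among them. Reg3g, a lectin that kills bacteria, stood at 56.4 CPM in members and 13.2 in Fxyd2-Cdh13 cells (4.28-fold). Trbc2, the constant segment of a T cell receptor chain, stood at 86.8 and 21.5 CPM (4.04-fold). Trbc2 was found in 623 members (38.3%), 10 cells held 6.17% of its UMIs, and members had 0 UMIs of the T cell gene Cd3e and 1 of the leukocyte gene Ptprc. Further high ratios were those of Fam84a (88.7 and 24.1 CPM), the amine-degrading enzyme Maoa (92.5 and 30.8), the kinesin Kif5c (141 and 50.9), the touch channel Piezo2 (217 and 84.4) and Abcc8, the sulfonylurea receptor (87.0 and 36.4). Glycam1 had the highest ratio, at 483 and 32.8 CPM, a log2 ratio of 3.88, with 94.9% of its member UMIs in 10 cells. Without called doublets its ratio was still the highest, at log2 3.56, and 10 cells held 92.8%.

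Lower in members was Ly6c1, a surface antigen, at 22.1 CPM against 103 in Fxyd2-Cdh13 cells (4.65-fold lower). Tph1, the enzyme that commits tryptophan to serotonin, stood at 183 and 509 CPM (2.78-fold lower). The BMP target Id3 stood at 48.9 and 173 CPM. Lower as well were the cytoskeletal adaptor Epb41l3 (14.4 and 63.5 CPM), the synaptic vesicle protein Sv2c (14.4 and 57.2), the raft protein Mal (17.6 and 66.9) and the angiogenins Ang4 and Ang5. Ang4 had 31.1 and 120 CPM, and reads of these near-identical copies may be split between them. The genes that favoured Fxyd2-Cdh13 cells thus included a serotonin enzyme and Id3, beside membrane proteins. Id3 was also among the leading genes of cluster 4 (log2 2.13), together with immediate early genes. That cluster held 266 Fxyd2-Cdh13 cells and 135 members. Its part in the Id3 difference was not tested, and neither was BMP signalling.

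The same contrast within the C3-TAg library, between 944 cells that met the rule and 283 Fxyd2-Cdh13 cells, used cells that had no part in choosing these genes. Of the 15 genes with the highest WT ratio, 12 were at least 1.5-fold higher there too, where 6.84% of 11292 genes were, and their median log2 ratio was 1.08. The 3 others were Saa1, Defb1 and Gbp2. Of the 15 with the lowest WT ratio, 13 were at least 1.5-fold lower, against 8.88% of all genes, with a median of -1.31. The 2 others were Nr4a1 and Tph1. Itih2 stood at 60.5 and 5.15 CPM in C3-TAg (log2 3.55), Reg3g at 55.2 and 4.36 CPM (log2 3.66) and Ly6c1 at 14.4 and 63.4 CPM (log2 -2.14). Tph1 stood at 298 and 283 CPM, so its WT gap was not seen there. When called doublets were left out and the genes chosen again, 12 of 15 passed 1.5-fold the same way at the high end and 12 of 15 at the low end, beside 7.81% and 10.8% of all genes.

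**Figure D3:**
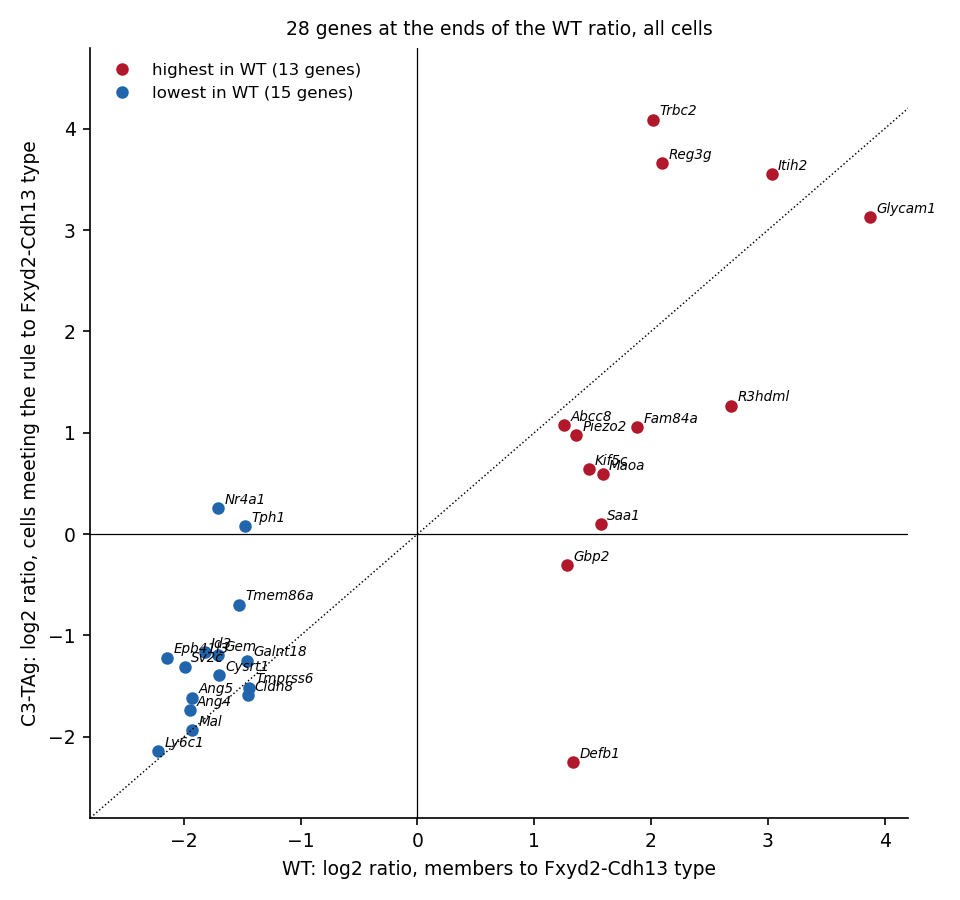
Log2 ratio of members to Fxyd2-Cdh13 cells in WT (x axis) and of the cells meeting the same rule to Fxyd2-Cdh13 cells in C3-TAg (y axis) for 28 genes at the extremes of the WT ratio, all cells included. Each point is 1 gene and the dotted line marks equal ratios. Of the 13 genes shown from the high end, 11 lie above 0 in C3-TAg, and of the 15 from the low end, 13 lie below 0.

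By gene group, members and Fxyd2-Cdh13 cells differed little in the hormone receptors and their cofactors. None of 19 measured genes of that list passed 1.5-fold either way, with a median log2 ratio of -0.18 beside -0.10 over all genes, and without called doublets 1 of 19 did, as lower. Prlr, the prolactin receptor, stood at 1921 CPM in members and 2869 in Fxyd2-Cdh13 cells. Foxa1, the pioneer factor of the oestrogen receptor, stood at 87.4 and 120 CPM. Of the hormone genes that the rule summed, Pgr stood at 92.3 and 138 CPM and Esr1 at 70.3 and 96.5 CPM, while Areg stood at 3673 and 1705 CPM. The ratio for Areg was 2.15, in a sum that the rule fixed only from below. Under TMM scaling the median of the receptor list was -0.07.

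Immediate early genes were lower in members: 9 of 21 passed 1.5-fold as lower and none as higher, beside 8.81% of all genes lower. Without called doublets 10 of 21 did, beside 10.6%. Fosb stood at 289 CPM in members and 539 in Fxyd2-Cdh13 cells, Atf3 at 296 and 589, and Junb at 1611 and 2499. Of 12 heat shock genes 3 were lower and none higher (4 lower without called doublets), among them the small chaperone Hspb1 at 263 and 549 CPM and the near-identical copies Hspa1a and Hspa1b. Cluster 4, which immediate early genes and Hspa1a helped to lead, held 266 of the 791 Fxyd2-Cdh13 cells and 135 of the 1625 members. The ratios are therefore averages over unequal shares of that cluster, and whether the types differ outside it was not tested. These groups are also induced by tissue dissociation, whose part in the difference was not tested. Of the 20 targets of the oxidative stress factor NRF2, 2 were higher and 1 lower, which is near the shares over all genes (6.58% higher and 8.81% lower). In the cell cycle and interferon lists the medians were -0.02 and -0.00, which TMM scaling turned to 0.09 and 0.11.

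Among 10 acute-phase genes measured beside fibrinogen, 7 were higher in members and 1 lower, beside 6.58% and 8.81% of all genes. Their median log2 ratio was 0.67, and 0.96 without called doublets. The higher ones were Saa1, Saa2, Cp, Lbp, Lrg1, Trf and F3. Several rested on few cells. Without called doublets 10 members held 72.0% of the Saa1 UMIs, 64.6% of those of Saa2, 73.6% of those of Lbp and 69.0% of those of Trf, against 4.14% of those of F3. All but F3 were far more abundant in receptor-negative cells: Lbp, which hands bacterial lipopolysaccharide to its receptor, had 64.9 CPM in members, 36.3 in Fxyd2-Cdh13 cells and 426 in receptor-negative cells. Receptor-negative marker genes moved the same way, with 11 of 21 higher in members than in Fxyd2-Cdh13 cells and none lower, and a summed level of 17767 against 10602 CPM. Without called doublets 10 of 21 were higher and 1 lower, and the sums were 4332 and 2012 CPM; their part in the acute-phase values was not tested. F3, tissue factor, the trigger of clotting, had the opposite distribution: it stood at 1875 CPM in members, 1072 in Fxyd2-Cdh13 cells and 313 in receptor-negative cells. Haptoglobin (Hp) was the 1 lower gene, at 387, 679 and 200 CPM.

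A cytokine route to acute-phase genes runs through interleukin-6 type receptors and STAT3. Only its transcripts were counted, and its activity was not tested. Of 14 genes of gp130 signalling, 1 was higher in members than in Fxyd2-Cdh13 cells and 1 was lower. That is near the shares over all genes (6.58% higher and 8.81% lower). The higher one was Il6ra, the interleukin-6 receptor, at 21.1 and 9.004 CPM, and the lower one Bcl3 at 87.5 and 145 CPM. Socs3, the feedback inhibitor that STAT3 induces, stood at 73.7 CPM in members, 97.1 in Fxyd2-Cdh13 cells and 68.4 in receptor-negative cells. Stat3 itself stood at 298, 337 and 472 CPM.

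Few genes of the uroplakin and calcitonin lists could be measured, so neither family was judged as a group. Of 10 uroplakin and urothelial genes only 2 could be measured, and neither was higher in members than in Fxyd2-Cdh13 cells. Upk2 had 33.0 CPM in members, 41.3 in Fxyd2-Cdh13 cells and 1.66 in receptor-negative cells, so that it marked both hormone-sensing types, unlike Upk3a. Calcb, the second CGRP gene at chr7:114718643-114723365, had 3.04, 10.6 and 0.132 CPM. Ramp1, the partner of the CGRP receptor, had 16.5, 8.51 and 51.9 CPM. Of 10 genes in the calcitonin list 5 could be measured against Fxyd2-Cdh13 cells. In members 2 were higher, Ramp1 among them, and 2 were lower, Calcb among them.

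Beside the 4390 receptor-negative WT cells the members differed in many genes, and the rule itself separates these cells by their hormone genes. At least 1.5-fold higher in members were 4334 of 13146 genes (33.0%), and lower were 2705 (20.6%), or 34.8% and 22.5% of the genes measured without called doublets. TMM scaling moved the ratios by 0.24 and gave 3285 higher and 3490 lower. Among the highest ratios were those of R3hdml (277 against 2.15 CPM, log2 7.01) and Itih2 (57.6 against 0.452, log2 6.99). Piezo2 (217 against 2.58 CPM), Abcc8 (87.0 against 1.13) and Cldn10, a claudin (281 against 5.22), had high ratios too. Ptn, pleiotrophin, a heparin-binding growth factor, reached 11655 CPM against 227. The lowest ratios were those of the chemokine Ccl5 (3.46 against 50.7 CPM), the kallikrein Klk10 (12.4 against 134), the tetraspanin Tspan8 (11.9 against 102), the prostaglandin synthase Ptgs2 (7.45 against 61.3) and the lipase inhibitor G0s2 (13.7 against 110). Also among the 15 lowest were the milk gene Wfdc18 (461 against 3698 CPM), lactoferrin (Ltf, 370 against 2664), the retinoic acid enzyme Aldh1a3 (15.8 against 127), the calcium-binding S100a8 and the chemokine Cxcl2. Without called doublets members had 96.5 CPM of Wfdc18, 71.8 of Ltf, 5.16 of Aldh1a3 and 4.22 of Ccl5.

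Of the secreted paracrine signals, 13 of 22 were higher in members than in receptor-negative cells and 7 lower. Over all genes 33.0% were higher and 20.6% lower. The list's median log2 ratio was 1.99 beside 0.21 over all genes. Wnt4, a progesterone-induced Wnt ligand, stood at 290 CPM in members and 25.03 in receptor-negative cells. Wnt5a stood at 44.9 and 1.34 CPM, and the lung-type chemokine Cxcl15 at 474 and 9.12 CPM. Stc2, stanniocalcin, stood at 617 and 17.1 CPM. Most of these were shared with Fxyd2-Cdh13 cells, which had 383 CPM of Wnt4, 40.5 of Wnt5a, 492 of Cxcl15, 766 of Stc2 and 12594 of Ptn. Between the hormone-sensing types 6.58% of all genes were higher in members and 8.81% lower. Of the signals, 4 of 20 were higher in members and 2 lower (3 and 2 of 18 without called doublets). RANKL (Tnfsf11) was one of the lower, with 24 UMIs or 1.26 CPM in members, 6.41 CPM in Fxyd2-Cdh13 cells and 0.0565 CPM in receptor-negative cells, so members had 5.09-fold less than the other type. The other was the pleiotrophin relative midkine (Mdk), at 3.36 and 16.4 CPM. Inhba, an activin subunit, was higher, at 11.3 against 0.863 CPM, with 52.6% of its UMIs in 10 cells.

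Among the EGF receptor ligands beside Areg, Btc stood at 10.5 CPM in members, 5.92 in Fxyd2-Cdh13 cells, 7.03 in the other hormone-sensing cells and 3.56 in receptor-negative cells. Epgn, epigen, stood at 8.92, 4.32, 6.54 and 0.320 CPM. Epgn rested on few cells: 3.26% of members and 2.53% of Fxyd2-Cdh13 cells had a UMI, and 10 members held 63.5% of the members' UMIs. Hbegf went the other way, at 84.8 CPM in members and 204 in receptor-negative cells. The interferon response list had 11 of 17 genes higher in members than in receptor-negative cells and 3 lower. Over all genes 33.0% were higher and 20.6% lower. The median log2 ratio of the interferon list was 1.02. Of the markers of other cell types, members had 13 UMIs (0.682 CPM) of the basal keratin Krt5, 16.2 CPM of Krt14, 0.525 CPM of the collagen Col1a1 and 6 UMIs of the macrophage gene Lyz2. Of 11 basal and contractile genes, 2 were higher in members than in receptor-negative cells and 7 lower. The higher ones were Acta2 (5.77 against 3.49 CPM) and Myh11 (1.73 against 0.396 CPM). Of 9 stromal, endothelial and immune genes 2 were higher and 6 lower. The higher ones were Cdh5 (1.52 against 0.547 CPM) and Dcn, decorin, a fibroblast proteoglycan. Dcn stood at 620 CPM in members, 581 in Fxyd2-Cdh13 cells and 15.2 in receptor-negative cells.

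**Figure D4:**
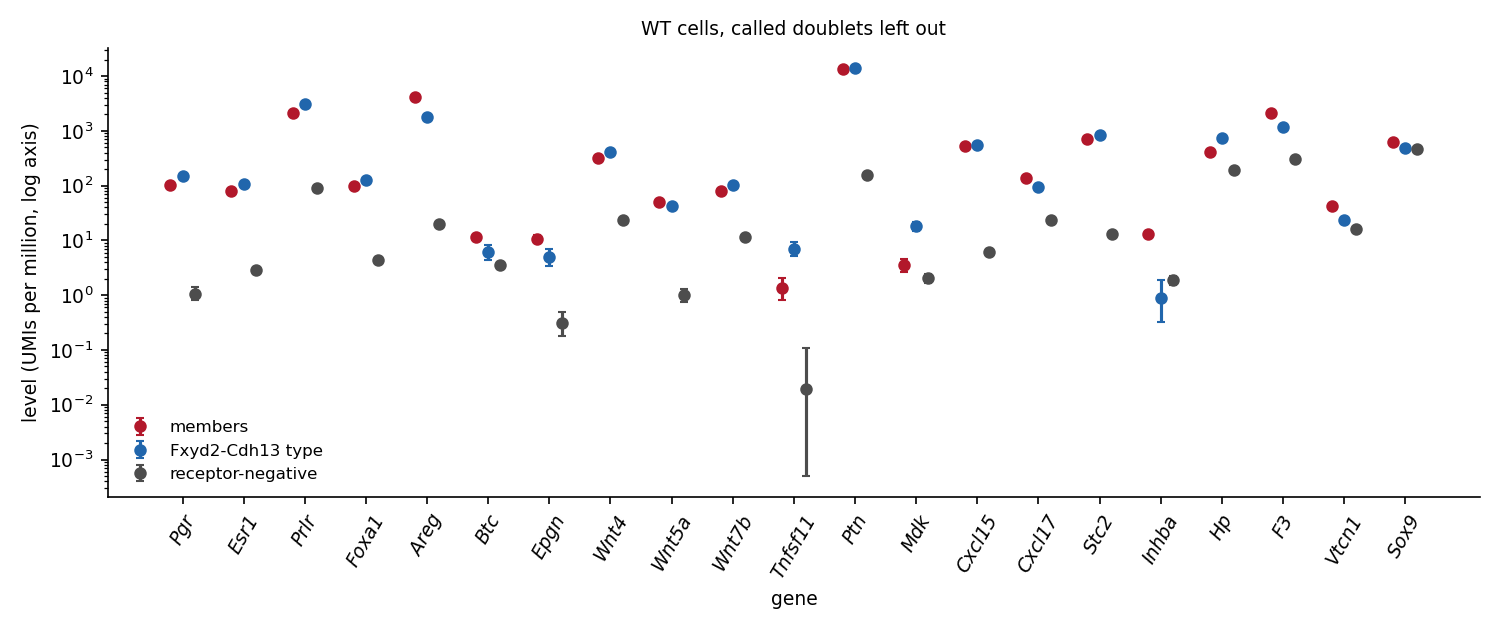
Levels (CPM, log axis) of hormone receptors, secreted signals and Sox9 in members, Fxyd2-Cdh13 cells and receptor-negative cells of WT, with called doublets left out and 95% Poisson intervals. Points of the 2 hormone-sensing types lie close together for most genes and far above the receptor-negative cells. Tnfsf11 is lower in members (1.34 CPM) than in Fxyd2-Cdh13 cells (7.10 CPM), and Inhba is higher (13.1 against 0.887 CPM).

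In the C3-TAg library the rule found 944 cells, 11.2% (10.5 to 11.9) of 8458 kept and 40.4% of its 2337 hormone-sensing cells, with a median of 8751 UMIs. Scrublet called 153 of them (16.2%) as doublets. The median mitochondrial share was 5.85%, and with a maximum of 5% only 3.68% of kept C3-TAg cells met the rule. Genotype and library cannot be told apart, and the part of the sort in the share was not tested. Compared with WT members, 2286 of 12219 genes (18.7%) were at least 1.5-fold higher and 1041 (8.52%) lower, or 13.9% and 8.92% without called doublets. TMM scaling moved the ratios by 0.17 and gave 1612 higher and 1554 lower.

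The marker genes were lower in the C3-TAg cells that met the rule. Fgb stood at 1441 CPM in C3-TAg and 2328 in WT (log2 -0.69), and Fgg at 1216 and 1959 CPM (log2 -0.69, and -0.58 without called doublets). Upk3a stood at 93.1 and 217 CPM, Pir at 42.7 and 170 CPM, and Calca at 97.1 and 252 CPM. The rule sets a floor under these genes in both libraries. Areg was close, at 4208 and 3673 CPM, and the receptor Prlr stood at 1276 and 1921 CPM. Of 19 hormone receptors and cofactors, 1 was higher and 2 lower, beside 18.7% and 8.52% of all genes.

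The acute-phase list was lower as a whole in C3-TAg. Each of 11 measured genes was at least 1.5-fold below WT, beside 8.52% of all genes, at a median log2 ratio of -1.62. Without called doublets 9 of 11 were lower and 1, Saa2, was higher (log2 0.75, against -1.06 with all cells). F3 stood at 599 CPM in C3-TAg and 1875 in WT, and Hp at 169 and 387 CPM. Receptor-negative cells of C3-TAg had 191 CPM of Lrg1 against 969 in those of WT. The 21 receptor-negative marker genes summed to 6744 CPM in the C3-TAg cells that met the rule and 17767 in WT members (1591 and 4332 without called doublets), and their part in the acute-phase values was not tested. Of 10 complement genes 7 were lower and none higher, and without called doublets 4 of 7 were lower. The defensin gene Defb1 stood at 1.16 and 58.7 CPM, the lowest ratio among the named genes (50.4-fold lower). The gut and brain peptide gene Cck stood at 3.68 and 69.1 CPM, the kinase gene Ak1 at 4.27 and 53.0 CPM, and the mucus protein gene Fcgbp at 37.2 and 322 CPM. Trbc2 stood at 20.3 and 86.8 CPM. Without called doublets Defb1, Ak1, Fcgbp and Trbc2 were still among the 15 lowest ratios, and Cck was not. Reg3g was close, at 55.2 and 56.4 CPM.

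Higher in C3-TAg were genes of the cell cycle, though part of this went with called doublets. Of 22 cell cycle genes 21 were higher and 1 lower, beside 18.7% and 8.52% of all genes, and the median log2 ratio was 4.24. Without called doublets 17 of 21 were higher, beside 13.9% of all genes, and the median was 2.45. Top2a, the topoisomerase of dividing cells, stood at 65.9 CPM in C3-TAg and 3.67 in WT members, and at 21.6 and 3.95 CPM without called doublets. The C3-TAg receptor-negative cells had 247 CPM. The basal keratin Krt14 stood at 101 and 16.2 CPM, and at 22.7 and 14.6 CPM without called doublets. The lower cell cycle gene was cyclin D1 (Ccnd1), at 42.9 and 119 CPM. Ratios that did not shrink without called doublets were those of Tesc, Creb5, Tnip3 and Has2. With called doublets left out, Tesc, a calcium-binding protein, stood at 67.7 against 3.28 CPM. The transcription factor Creb5 then stood at 91.6 against 4.62 CPM and the NF-kB inhibitor Tnip3 at 156 against 13.9 CPM. Has2, the hyaluronan synthase, then stood at 50.5 against 3.02 CPM. Slpi, a secreted protease inhibitor, stood at 3844 and 664 CPM.

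The secreted signals shifted in both directions. Over all genes 18.7% were higher in C3-TAg and 8.52% lower, or 13.9% and 8.92% without called doublets. Wnt5a stood at 110 CPM in C3-TAg and 44.9 in WT, whereas Wnt4 stood at 157 and 290 CPM and Stc2 at 266 and 617 CPM. Among EGF ligands Btc stood at 28.4 and 10.5 CPM, Epgn at 27.5 and 8.92, and Hbegf at 251 and 84.8. Without called doublets Hbegf stood at 134 and 64.2 CPM, and C3-TAg receptor-negative cells had 581 CPM with all cells included. Of 12 genes in the EGF list 6 were higher and 2 lower, a median log2 ratio of 0.58 (6 and 1 of 11 without called doublets, 0.85). Interferon response genes were higher in 10 of 16 and lower in none, for example Isg15 at 34.7 and 14.5 CPM. Itih2, one of the members' leading genes, stood at 60.5 and 57.6 CPM. For 7 of 22 paracrine signals the level was higher and for 7 lower, or 4 and 7 of 20 without called doublets, and the list's median of 0.03 was -0.15 under TMM scaling and 0.24 without called doublets. That of the hormone receptors was 0.05, -0.12 under TMM scaling and -0.08 without called doublets.

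**Figure D5:**
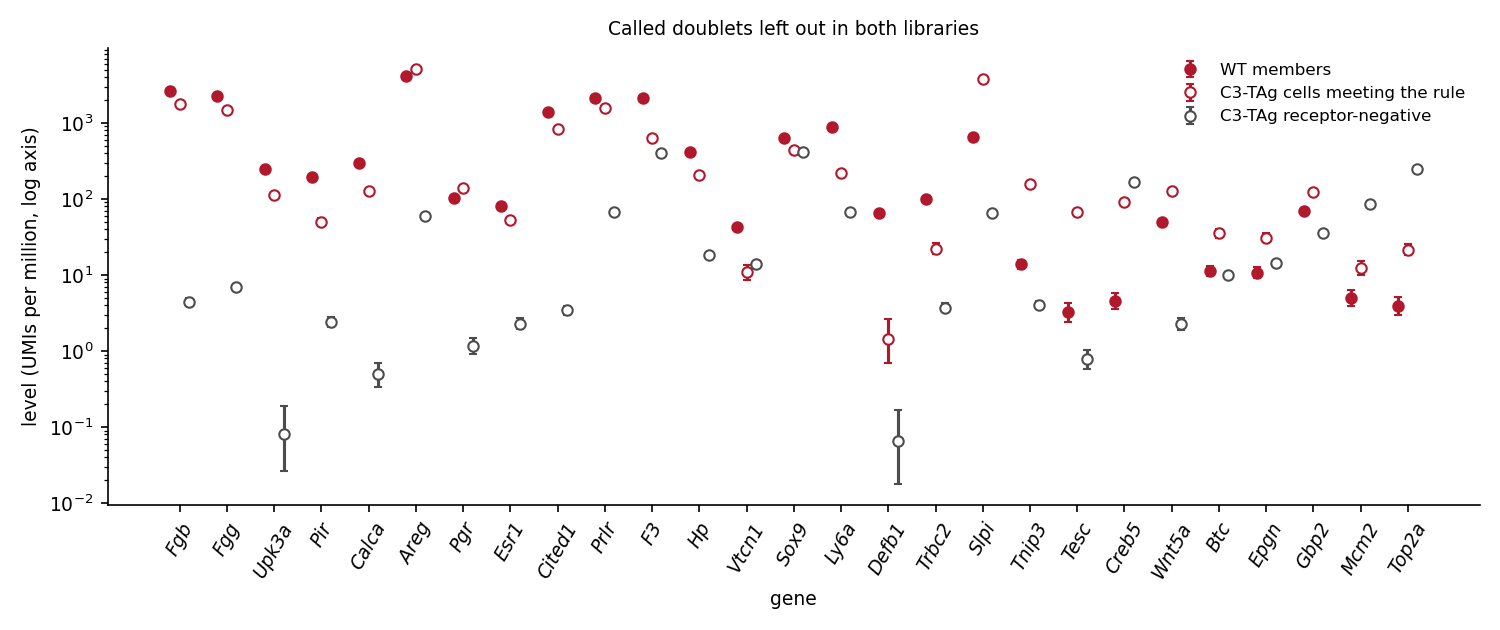
Levels (CPM, log axis) in WT members, C3-TAg cells that met the rule and C3-TAg receptor-negative cells, with called doublets left out and 95% Poisson intervals. Upk3a, at 113 against 252 CPM, and Defb1 are lower in C3-TAg. Tesc, Creb5 and Tnip3 are higher.

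The study concerned Sox9 and the immune checkpoint protein B7x, the product of Vtcn1. Sox9, a transcription factor of luminal progenitors, stood at 606 CPM (595 to 618) in WT members, 506 in Fxyd2-Cdh13 cells and 470 in receptor-negative cells, and at 444 CPM in the C3-TAg cells that met the rule. Members' ratios to both WT groups stayed below 1.5, and the log2 ratio of C3-TAg to WT was -0.45, or -0.62 both under TMM scaling and with cells thinned before the rule, which is past 1.5-fold. Vtcn1 stood at 40.0 CPM (37.2 to 43.0) in WT members, 22.7 in Fxyd2-Cdh13 cells and 16.3 in receptor-negative cells, so that members had the highest level of the groups. Its log2 ratio to Fxyd2-Cdh13 cells was 0.82 (0.58 to 1.06), and 0.50 when cells were thinned to 2000 UMIs before the rule was applied, which is below 1.5-fold. In C3-TAg it stood at 11.5 CPM in the cells that met the rule, 5.55 in Fxyd2-Cdh13 cells and 13.8 in receptor-negative cells. The log2 ratio of C3-TAg to WT was -1.79 (-2.09 to -1.51).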

How the data were processed

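The authors deposited matrices of UMI counts, with 31053 genes and 1 library each for WT and C3-TAg. The submitters' processing notes name Cell Ranger 3.1.0 and the build mm10. The counts are whole numbers and were not normalized. The way barcodes were called is not stated in the sources. Groups of animals come from the labels.

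Barcode filters and the rule are given above. Values were computed with scanpy 1.11.5, leidenalg 0.10.2, pandas 2.3.3, scipy 1.17.1 and numpy 2.4.6 under Python 3.11.15 (seed 1). Counts were summed over the cells of a group and divided by the group's total. Levels carry exact Poisson intervals, ratios exact conditional Poisson intervals and shares Clopper-Pearson intervals, at 95%. A count of 0 was set to 3 counts per group for limits and bounds. Scrublet called doublets, 360 in WT (4.86%) and 544 in C3-TAg (6.43%). They were kept as the rule keeps them, and were left out as an alternative. For shares, cells were thinned to 2000 UMIs and shallower cells left out. Clustering used 2000 variable genes without the 14 rule genes, 30 components, 15 neighbours and Leiden resolution 0.5. The ratio step was tested on simulated data.

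The text names genes from the 15 highest and 15 lowest ratios per comparison, of those genes that reached 50 CPM in either group, leaving out mitochondrially encoded, ribosomal protein, immunoglobulin, unnamed and rule genes. It also names the rule genes, Fga, Sox9, Vtcn1 and list members, with at least 20 CPM in a group. Below that level, Tnfsf11, Mdk, Inhba, Btc, Epgn, Calcb and cell type markers, and the genes named for single clusters, were picked after their values were seen. The members and lists were chosen with earlier results of these data known. Alternatives were TMM scaling, other minimums for the rule and for measured genes, 2-fold in place of 1.5-fold, means of per-cell shares, other resolutions, and, added after seeing the data, leaving out hormone-sensing cells with 50 or more receptor-negative UMIs per 10000. 1 list symbol was not matched. Some genes that the rule picks are not reported here, though the counts include them. Promoters came from RefSeq and gene positions from GENCODE annotation, both on GRCm38.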

Additional observations from a re-analysis of the deposited data

Results flagged for a closer look

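For 4 named genes the ratio of members to Fxyd2-Cdh13 cells had opposite signs in the WT and C3-TAg libraries. In each case the difference between the libraries was not tested, as each genotype has 1 library. Defb1, a defensin, had a log2 ratio of 1.33 in WT and of -2.25 in C3-TAg, where it rested on 12 UMIs in the cells that met the rule and 14 in Fxyd2-Cdh13 cells. Gbp2, an interferon-induced GTPase, had 1.28 in WT (60.5 against 24.9 CPM) and -0.30 in C3-TAg (102 against 126 CPM). Nr4a1, an immediate early nuclear receptor, had -1.70 in WT (16.2 against 52.7 CPM). In C3-TAg its log2 ratio was 0.26 (-0.05 to 0.57), and 0.55 without called doublets (36.9 against 25.2 CPM). Tph1 had -1.47 in WT and 0.08 (-0.04 to 0.20) in C3-TAg, an interval that includes 0.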

How the results depend on the processing

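The share of WT cells that are members, 21.9%, was 20.5% without called doublets, 17.2% with cells thinned to 2000 UMIs before the rule, 15.5% with at least 3 marker genes, 14.2% with a mitochondrial maximum of 5% and 20.1% without cells of high milk gene load (the alternative added after seeing the data). In C3-TAg the 11.2% became 9.99%, 7.59%, 4.98%, 3.68% and 10.2% in the same order. Against receptor-negative cells, 2723 genes were higher at 2-fold in place of 1.5-fold. Against Fxyd2-Cdh13 cells, 1392 were higher and 2081 lower with no minimum of UMIs, 332 and 603 with a minimum of 100 UMIs, and 349 and 315 at 2-fold. Between genotypes the numbers were 3723 and 1611, 1401 and 649, and 1111 and 521, and 1252 genes were higher with thinned cells. The richest cluster's share of members, 34.5%, was 64.9% at resolution 0.3, 30.3% at 1.0 and 39.4% without called doublets. TMM scaling, a hormone gene minimum of 10 and means of per-cell shares left every count of higher or lower genes within 1.5 times. Glycam1 had a log2 ratio to Fxyd2-Cdh13 cells of -0.11 without cells of high milk gene load, a load that counts Glycam1 itself, so the fall is built in, and its ratio of C3-TAg to WT was 0.88 with at least 3 marker genes. Of 696 called ratios of named and list genes, 11 changed sign without called doublets, and 5 of these could still be measured. Between genotypes Saa2 (-1.06 to 0.75), Acta2 (0.60 to -2.33) and Cd74 (0.96 to -0.68) were then called the other way on the log2 scale, and Mcm6 went from 0.97 to -0.31. Against Fxyd2-Cdh13 cells Hey1 went from 0.60 to -0.24. The cause of the other shifts was not tested, beyond the smaller number of genes or cells that an alternative leaves. Depth limits Upk3a, Pir and Calca in single cells, since shares of cells with a UMI depend on it. No paired analysis was possible because each genotype has 1 library.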
